A study of Mus musculus with 12 samples.

Results

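CXC chemokines are small secreted proteins that steer leukocytes, named for a pair of cysteines parted by 1 other residue. Expression of 7 of their genes was examined in mouse dendritic cells: Cxcl1, Cxcl2, Cxcl3, Cxcl9, Cxcl10, Cxcl11 and Cxcl16. Each gene was represented by the single probe set that the platform annotation assigns to its symbol and to no other gene, and all 7 were found among 19937 genes. The members were named as part of a family and not picked by a threshold, but earlier results of these data were known. Their counts describe these 7 genes and not the family as a whole, and 8 other CXC ligands are given below.

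In this family, Cxcl1, Cxcl2 and Cxcl3 bind the receptor Cxcr2 and draw neutrophils, and their transcription is a textbook response to NF-kB downstream of Dectin-1 and other pattern receptors. Cxcl9, Cxcl10 and Cxcl11 bind Cxcr3 on activated T cells and natural killer cells. They are induced by interferons through STAT and IRF factors, Cxcl10 also by NF-kB. RefSeq lists Cxcl11 as a transcribed pseudogene in the C57BL/6J reference genome, so statements here on its protein may not apply to these cells. Cxcl16 is made as a membrane protein that binds Cxcr6 and scavenges oxidised lipoprotein, and it is released by proteases. Dendritic cells use these products to call in neutrophils early and T cells later.

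The cells were bone marrow cells cultured for 7 days in medium with GM-CSF (200 ng/ml) and positively selected with CD11c beads. The labels put their purity above 95%. There were 4 groups of 3 arrays: wild-type cells left untreated, wild-type cells given curdlan for 6 h, IL-2 knockout cells left untreated, and IL-2 knockout cells given curdlan for 6 h. Curdlan is a beta-glucan particle that binds Dectin-1, encoded by Clec7a. Every sample, wild type included, bears the strain label B6.129P2-Il2tm1Hor/J, so the genotype was read from the genotype label and the title. The knockout is a germline one and removes IL-2 from every cell of the animal, not from dendritic cells alone. The design asks what IL-2 signalling contributes to dendritic cell physiology. Whether the 3 replicates of a group are 3 mice is not stated in the labels, so the p-values measure only the spread between these samples, which may be technical. Each untreated or treated group enters more than 1 comparison, so the comparisons share arrays and are given side by side.

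Itgax, which encodes the CD11c used to select the cells, was high on all 12 arrays. Its group means lay between 12.91 and 13.03 on the log2 scale of the RMA values that are used throughout. Clec7a had group means between 12.53 and 12.67. Il2 rose with curdlan in wild-type cells from 5.49 ± 0.11 to 7.25 ± 0.53 and read 5.90 ± 0.14 and 5.77 ± 0.12 in untreated and treated knockout cells (SD, n = 3 each). With curdlan the knockout arrays thus lay below the wild-type arrays (-1.48, adjusted p 0.0114 by limma), while in untreated cells each knockout array read above each wild-type array (adjusted p 0.524), so the untreated labels are not checked by this gene. The natural killer marker list (6 genes) had array means of 4.80 to 4.95 and the T cell list (6 measured) 5.34 to 5.65, against array medians of 6.59 to 6.64 over all probe sets. Neutrophil markers (12 genes) averaged 6.27 to 6.51 per array. Macrophage markers (9 measured) averaged 11.24 to 11.68 per array, beside 11.21 to 11.73 for the dendritic cell list (10 genes). Within the dendritic cell list Flt3 and Zbtb46 read lower, with group means of 6.78 to 7.70 and 7.55 to 8.29. Array values give a relative level for each probe set, so tests compare arrays within a gene, and the array median is given only to place low readings. In cells measured in bulk a change in the share of producing cells cannot be told apart from a change in RNA per cell.

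The promoters are shown first because the members differ in the motifs they carry. RefSeq (GRCm38.p6) gave an upstream window for 5 of the 7 genes, and the 250 bases before the annotated transcript start were searched on both strands. The motifs were the interferon-stimulated response element (ISRE), the gamma-activated site TTCNNNGAA, the AP-1 site TGANTCA and the NF-kB consensus. Cxcl1, Cxcl2 and Cxcl3 each held the same 11 letters, GGGAATTTCCC, which the NF-kB consensus matches on both strands at adjoining offsets. Cxcl10 held NF-kB matches in 2 places, 1 ISRE and 1 AP-1 site. The capitals mark these matches, and each sequence runs 5′ to 3′ towards its gene.
Cxcl1 (chr5:90890995-90891244, plus strand): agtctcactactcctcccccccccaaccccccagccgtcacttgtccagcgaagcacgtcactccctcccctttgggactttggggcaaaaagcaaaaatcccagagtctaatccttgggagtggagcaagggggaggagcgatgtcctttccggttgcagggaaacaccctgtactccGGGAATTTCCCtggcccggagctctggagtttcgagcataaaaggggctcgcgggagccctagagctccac
Cxcl2 (chr5:90903649-90903898, plus strand): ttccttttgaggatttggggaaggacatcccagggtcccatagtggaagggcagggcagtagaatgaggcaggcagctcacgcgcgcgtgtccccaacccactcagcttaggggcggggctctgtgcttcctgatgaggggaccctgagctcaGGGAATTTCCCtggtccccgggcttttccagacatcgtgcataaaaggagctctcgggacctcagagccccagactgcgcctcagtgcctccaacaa
Cxcl3 (chr5:90785851-90786100, plus strand): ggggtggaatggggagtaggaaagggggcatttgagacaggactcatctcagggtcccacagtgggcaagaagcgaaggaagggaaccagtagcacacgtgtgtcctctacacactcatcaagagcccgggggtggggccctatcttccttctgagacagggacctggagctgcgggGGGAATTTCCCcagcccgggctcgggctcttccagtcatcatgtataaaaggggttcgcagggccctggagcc
Cxcl10 (chr5:92348890-92349139, minus strand): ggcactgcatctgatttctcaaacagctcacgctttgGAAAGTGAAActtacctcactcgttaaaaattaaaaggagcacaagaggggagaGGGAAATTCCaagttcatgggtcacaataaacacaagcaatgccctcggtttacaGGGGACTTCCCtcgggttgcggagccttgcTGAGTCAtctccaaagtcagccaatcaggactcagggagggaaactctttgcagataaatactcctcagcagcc

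The shared 11 letters lay 71 to 61 bases upstream of the start in Cxcl1, 97 to 87 in Cxcl2 and 73 to 63 in Cxcl3. The letters were taken from these 3 windows, so a match in each of them was fixed in advance. Among 32851 RefSeq windows of the same length, 14 held them on either strand (0.0426%), with those of Cxcl1, Cxcl2 and Cxcl3 included. The wider NF-kB consensus was matched in 7.25% of windows, the ISRE in 2.98%, the AP-1 site in 6.75% and the gamma-activated site in 7.02%. In Cxcl10 the ISRE lay 213 to 204 bases upstream, and its NF-kB matches lay 159 to 150 and 104 to 94 bases upstream, where 2 overlapping matches were joined. Cxcl9 had no match to any of the 4 motifs within this window, which says only that these letters are not in these bases. A match describes the sequence and is no measure of binding.

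**Figure D1:**
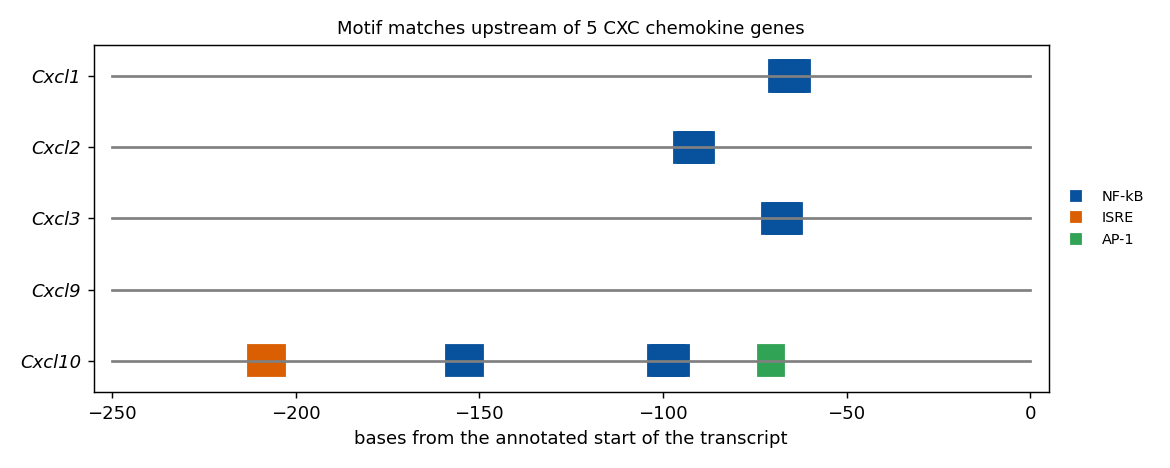
Positions of motif matches (coloured boxes) in the 250 bases upstream of the annotated transcript start of 5 genes; the x axis is the distance from that start in bases. Cxcl1, Cxcl2 and Cxcl3 each carry a block of NF-kB matches between 97 and 61 bases upstream, Cxcl10 carries NF-kB, ISRE and AP-1 matches, and Cxcl9 carries none.

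Most members rose with curdlan in both genotypes, from 1.44-fold to 13.1-fold where the test was passed. In wild-type cells 6 of 7 members passed an adjusted p of 0.05 and all 6 were higher (limma, Benjamini-Hochberg over all genes), against 7.27% of all genes that passed as higher. In knockout cells 7 of 7 passed as higher, against 9.29% of all genes. That count was 4 without untreated knockout array 1, 4 without treated knockout array 1 and 2 (Cxcl2 and Cxcl10) without both. The median log2 difference of the members was 1.35 in wild-type cells, where the median of all genes was 0.02, and 0.81 in knockout cells, where it was 0.04. Untreated and treated arrays with the same number were then compared within a genotype. The treated array was higher for every member in all 6 pairs, 42 of 42 differences. The members share these pairs of arrays, and the same count was not taken over all genes. Such a pair is called a culture below, though the labels do not state that its arrays share one. All treated arrays lay above all untreated arrays for 7 members in wild-type cells and 6 in knockout cells, against 17% and 19.4% of all genes.

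Markers of other cell types were read beside this rise. Of 9 macrophage markers measured, Mertk (0.38 and 0.32) and Fcgr1 (0.77 and 0.64) rose in wild-type and knockout cells, while 6 of the 9 had differences below 0 in each and the list median was -0.27 and -0.14. With culture (the same-numbered untreated and treated arrays of a genotype) as a block, 3 macrophage markers rose and 5 fell in wild-type cells. In knockout cells 3 rose and 4 fell. Mrc1 fell by 0.51 and 0.57. Under this block 26.4% of all genes passed in wild-type and 32.3% in knockout cells, 9.95% and 14.4% of all genes as higher. Of 3 plasmacytoid dendritic cell markers Tcf4 rose in both (0.87 and 0.80) and Ccr9 in knockout cells (0.30). Of the dendritic cell list, Ccr7, the receptor of migrating mature cells, rose by 0.99 and 1.09. The mean of the 12 neutrophil markers ran from 6.33 to 6.46 per array in untreated and from 6.34 to 6.42 in treated wild-type cells, and from 6.27 to 6.37 and 6.28 to 6.51 in knockout cells. No neutrophil marker rose without a block. With culture as a block 3 of 12 did in knockout cells (Ly6g 0.20, Mpo 0.23 and Ngp 0.35), against 14.4% of all genes. The part of these genes in the members' rise was not tested.

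**Figure D2:**
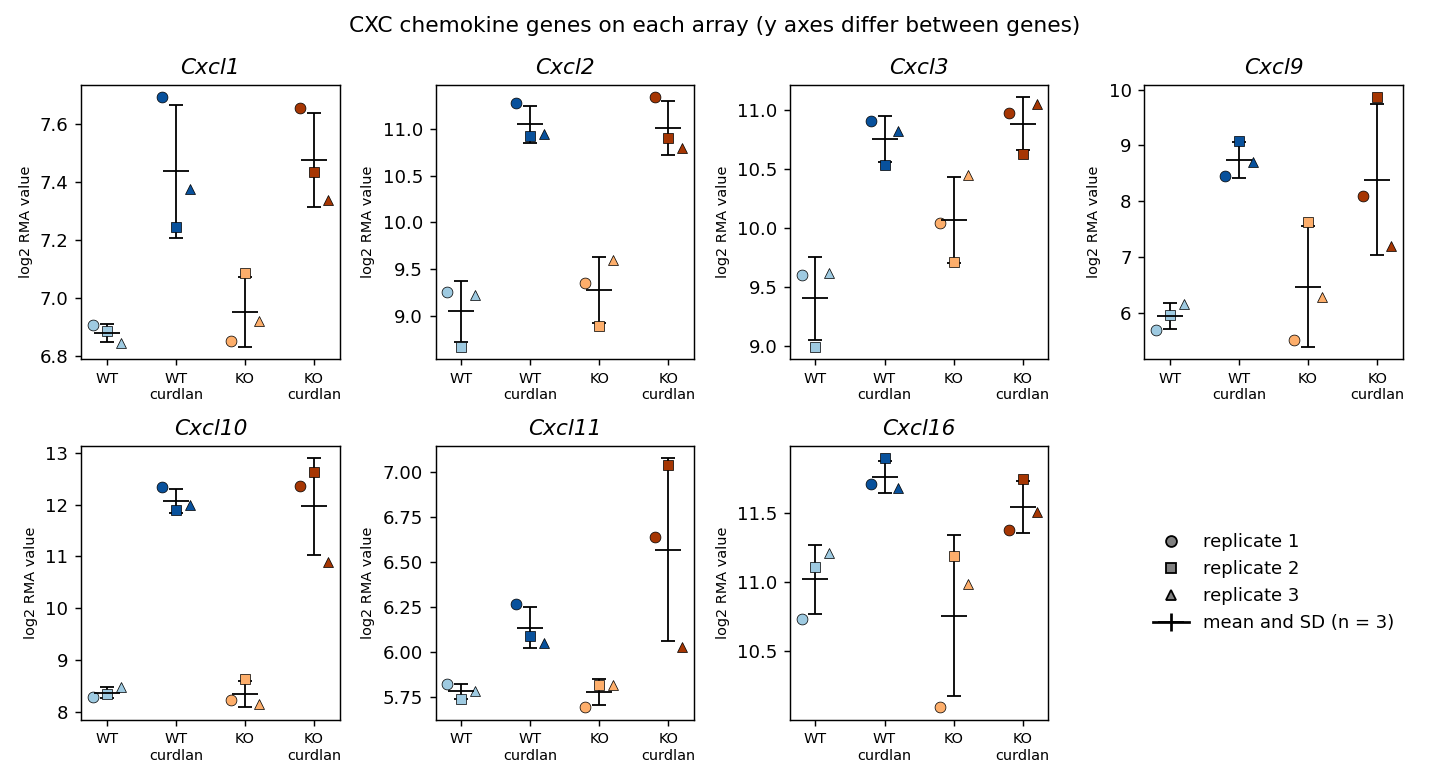
Log2 RMA value of each member on each array (points, shaped by replicate number) with the group mean and SD (n = 3, black), for wild-type (WT) and knockout (KO) cells with and without curdlan; the y axes differ between genes. Treated arrays sit above untreated arrays of the same genotype for every gene except Cxcl9 in knockout cells, where untreated array 2 (7.63) lies above treated array 3 (7.21).

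Among the neutrophil-drawing members, Cxcl2 had the largest fitted difference. Untreated wild-type arrays read 9.26, 8.67 and 9.22 and treated ones 11.27, 10.93 and 10.95. Knockout arrays read 9.35, 8.89 and 9.59 untreated and 11.34, 10.90 and 10.79 with curdlan. The lowest treated array of each genotype thus stood more than 1 log2 unit above its highest untreated array. Cxcl2 rose 4.003-fold in wild-type cells (log2 difference 2.00 ± 0.21, SE, adjusted p 8.5e-05) and 3.33-fold in knockout cells (1.73 ± 0.21, adjusted p 0.000284).

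Cxcl3, a close relative of Cxcl2, rose in both genotypes. Wild-type arrays read 9.60, 8.998 and 9.62 untreated and 10.91, 10.54 and 10.82 with curdlan. Knockout arrays read 10.04, 9.71 and 10.45 untreated and 10.97, 10.63 and 11.05 with curdlan. The treated levels of the genotypes overlapped, while each untreated knockout array lay above each untreated wild-type array. The rise was 2.55-fold in wild-type cells (1.35 ± 0.20, SE, adjusted p 0.00108) and 1.76-fold in knockout cells (0.81 ± 0.20, adjusted p 0.0166). The knockout call was lost without untreated array 1 (0.056), without treated array 1 (0.0581) and without both (0.141).

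Cxcl1 (KC in older mouse literature) moved less on this array. It read 6.91, 6.89 and 6.84 in untreated and 7.69, 7.24 and 7.37 in treated wild-type cells. It read 6.85, 7.08 and 6.92 in untreated and 7.65, 7.43 and 7.34 in treated knockout cells. No treated array overlapped an untreated one in either genotype. The difference was 0.56 ± 0.11 (SE, adjusted p 0.00543) in wild-type and 0.52 ± 0.11 (adjusted p 0.00827) in knockout cells, about 1.47-fold and 1.44-fold. Without both knockout arrays of replicate 1 the knockout call was lost (0.38, adjusted p 0.116). Its untreated values were only a little above the array medians of 6.59 to 6.64. No background level was measured, and if these values are near background the fold may be understated. Probe sequences were not used here, and cross-reading between the similar Cxcl1, Cxcl2 and Cxcl3 transcripts was not tested.

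Of the members that bind Cxcr3, Cxcl10 had the largest fitted difference of the 7. Wild-type arrays read 8.28, 8.33 and 8.49 untreated and 12.34, 11.90 and 11.99 with curdlan. Knockout arrays read 8.23, 8.62 and 8.15 untreated and 12.36, 12.64 and 10.90 with curdlan. Treated knockout array 3 was the lowest of the 6 treated arrays and was still above every untreated one. Cxcl10 rose 13.1-fold in wild-type cells (3.71 ± 0.34, SE, adjusted p 3.8e-05) and 12.4-fold in knockout cells (3.63 ± 0.34, adjusted p 5.54e-05). Both calls held when any array or any same-numbered pair was dropped, as did those of Cxcl2.

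Cxcl9, which is known as the member most dependent on interferon gamma, had the largest SD of the members in 3 of the 4 groups, all but untreated wild-type cells. Wild-type arrays read 5.69, 5.97 and 6.16 untreated and 8.45, 9.09 and 8.70 with curdlan, with no overlap. Knockout arrays read 5.51, 7.63 and 6.28 untreated and 8.09, 9.86 and 7.21 with curdlan. In knockout cells the groups overlapped because untreated array 2 was higher than treated array 3. The SD of the knockout arrays was 1.08 untreated and 1.35 treated, against 0.24 and 0.32 in wild-type cells. The treated knockout SD was at or above that of 99.96% of all genes, whose median was 0.0895. The rise was 6.98-fold in wild-type cells (2.80 ± 0.60, SE, adjusted p 0.00753) and 3.77-fold in knockout cells (1.91 ± 0.60, adjusted p 0.0417).

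The Cxcl9 call in wild-type cells was lost when both arrays of replicate 1 (0.0589) or of replicate 2 (0.0701) were left out. In knockout cells it was lost without untreated array 1 (1.43, adjusted p 0.161) or 3 (0.112), without treated array 1 (0.078) or 2 (1.18, adjusted p 0.148), and without both arrays of replicate 1 (0.222). It was also lost when the 6 knockout arrays were fitted alone (adjusted p 0.114 by limma). Of 21 alternatives, 8 lost the knockout call, and not all of them are named here. Untreated wild-type Cxcl9 lay below the median of every array, so its fold may be understated.

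Cxcl11 is listed by RefSeq, for the C57BL/6J reference genome, as a transcribed pseudogene without a protein. Wild-type arrays read 5.82, 5.74 and 5.78 untreated and 6.27, 6.09 and 6.05 with curdlan. Knockout arrays read 5.69, 5.82 and 5.82 untreated and 6.64, 7.04 and 6.03 with curdlan. Treated arrays were above untreated arrays in both genotypes, by a small margin. The wild-type difference did not pass (0.35 ± 0.18, SE, adjusted p 0.216), although it did when the 6 wild-type arrays were fitted alone (0.0145). In knockout cells Cxcl11 rose by 0.79 ± 0.18 (adjusted p 0.0118), a call lost when the 6 knockout arrays were fitted alone (0.0547) or without both arrays of replicate 1 (0.122). Most Cxcl11 values lay below the array medians.

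Cxcl16, the membrane-bound member, rose modestly from a high reading. Wild-type arrays read 10.73, 11.11 and 11.21 untreated and 11.71, 11.89 and 11.68 with curdlan. Knockout arrays read 10.09, 11.19 and 10.98 untreated and 11.38, 11.75 and 11.50 with curdlan. The groups did not overlap in either genotype, though untreated knockout array 1 stood well below its fellows. The difference was 0.74 ± 0.23 (SE, adjusted p 0.0432) in wild-type and 0.79 ± 0.23 (adjusted p 0.032) in knockout cells. The wild-type call was lost with any single wild-type array left out (adjusted p 0.0585 to 0.153 by limma) or any same-numbered pair (0.0931 to 0.241). Over 21 alternatives it was lost in 11, which include fits that kept all wild-type arrays. Over 21 alternatives for knockout cells the call was lost in 7, not all of them named here. The knockout call was lost without untreated array 1 (0.46, adjusted p 0.0707), without treated array 1 (0.0552) or 2 (0.119), without both arrays of replicate 1 (0.0778) or 3 (0.0606), and when the 6 knockout arrays were fitted alone (0.083).

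Between genotypes no member passed without a replicate block. With the replicate number as a block 1 did, Cxcl3 in untreated cells (adjusted p 0.00507 by limma), against 3.51% of all genes under that block. That block was fitted to all 12 arrays, so it also joined same-numbered treated arrays, which were not taken as pairs between genotypes. Without it, in untreated cells 0 of 7 passed, against 1.42% of all genes, and 1 of 7 had an unadjusted p under 0.05, against 10.6%. In treated cells 0 of 7 passed, against 0.622% of all genes, and again 1 of 7 had an unadjusted p under 0.05, against 11.6%. The differences ran from -0.26 (Cxcl16) to 0.66 (Cxcl3) in untreated cells and from -0.36 (Cxcl9) to 0.43 (Cxcl11) in treated cells. A p that misses the threshold does not show equal expression, and the intervals show how much each comparison could have missed.

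The narrowest intervals belonged to Cxcl1. Its knockout minus wild-type difference was 0.07 untreated (95% confidence interval -0.17 to 0.32) and 0.04 with curdlan (-0.21 to 0.28). For Cxcl2 the treated difference was -0.04 (-0.49 to 0.42), and for Cxcl10 it was -0.11 (-0.86 to 0.64). For Cxcl9 the data allow a change in either direction, with a treated difference of -0.36 and an interval from -1.68 to 0.97. Its same-numbered treated arrays differed by -0.36, 0.77 and -1.49, so the sign was not shared. Cxcl16 differed by -0.22 with curdlan (-0.72 to 0.29).

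Cxcl3 in untreated cells was the member with the largest genotype difference. It was higher in knockout cells by 0.66 (95% confidence interval 0.22 to 1.11, unadjusted p 0.00737 and adjusted p 0.183 by limma), and its arrays did not overlap, which held for 7.55% of all genes in that direction. Same-numbered untreated arrays differed by 0.44, 0.72 and 0.83, all in the same direction. With the replicate number as a block this was the only member to pass. With curdlan, same-numbered arrays differed by 0.07, 0.09 and 0.23, and the fitted difference was 0.13 (-0.32 to 0.58, adjusted p 0.882).

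Cxcl11 gave the other low unadjusted p, in treated cells, where it was 0.43 higher in the knockout (0.03 to 0.84, unadjusted p 0.0372, adjusted p 0.384 by limma). The arrays of the genotypes overlapped, because treated knockout array 3 read 6.03 and the wild-type arrays 6.05 to 6.27. Without that array the difference was 0.70 and passed (adjusted p 0.0431), and with array weights it was 0.54 and passed (0.0402). Without treated knockout array 2, the highest, it was 0.20 (adjusted p 0.751), so the size of this difference rests on which array is kept.

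The curdlan effect itself was then compared between genotypes as an interaction. No member passed, and 0 of 19937 genes did (0% of all genes), with 552 genes (2.77%) and 0 of 7 members at an unadjusted p under 0.05. The interaction of Cxcl9 was -0.89 (95% confidence interval -2.76 to 0.98). It was -0.30 without treated knockout array 3, -0.31 without untreated knockout array 2, -1.37 without untreated knockout array 1 and -1.63 without treated knockout array 2. Cxcl3 had -0.54 (-1.17 to 0.10, unadjusted p 0.0896 by limma), which was -0.33 without untreated wild-type array 2 and -0.35 without untreated knockout array 3, and Cxcl11 0.44 (-0.13 to 1.01, unadjusted p 0.119). For Cxcl10 the interaction was -0.08 (-1.14 to 0.98) and for Cxcl1 it was -0.03 (-0.38 to 0.31).

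**Figure D3:**
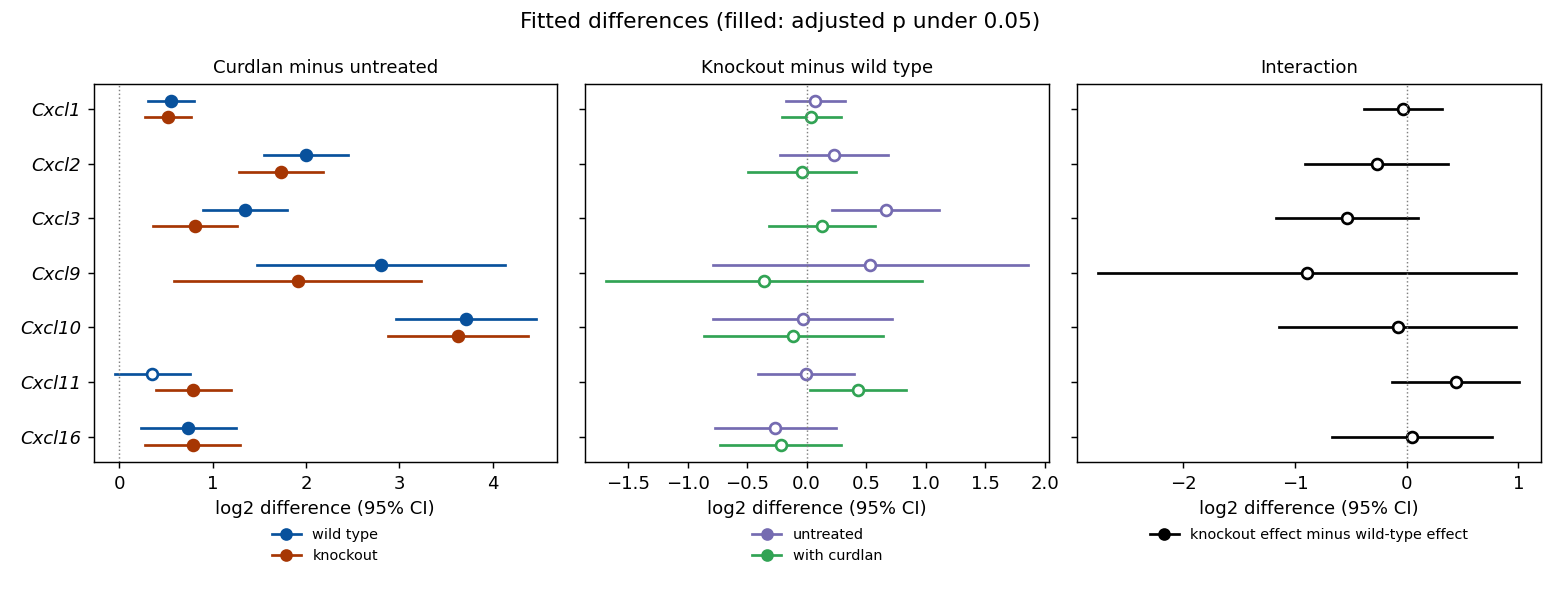
Fitted log2 differences (points) with 95% confidence intervals (lines) of each member: curdlan in wild-type and in knockout cells, genotype in untreated and in treated cells, and the interaction; filled points have an adjusted p under 0.05. Among the curdlan effects 13 of 14 points are filled, and no point is filled in the other panels.

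The members differed in how their replicates scattered. After the group means were removed, Cxcl10 and Cxcl11 deviated together over the 12 arrays (Pearson's r 0.93), and Cxcl9 deviated with Cxcl10 (0.71), with Cxcl11 (0.73) and with Cxcl16 (0.70). Cxcl2 and Cxcl3 deviated together as well (0.80). These sets were not sharply parted. Cxcl1 deviated with Cxcl10 (0.56) and Cxcl11 (0.40) more than with Cxcl2 (0.30) or Cxcl3 (0.05), and Cxcl16 had only 0.21 with Cxcl10 and 0.24 with Cxcl11. Other values ran down to -0.57, for Cxcl3 and Cxcl9. These values describe 12 arrays, some of which may share cultures and processing. Cxcl10 and Cxcl11 spread most in treated knockout cells (SD 0.93 and 0.51, n = 3). In the other groups their SD was at most 0.25 and 0.11, so their r rests largely on those 3 arrays. Treated knockout array 2 stood above its group mean by 1.47 for Cxcl9, 0.67 for Cxcl10 and 0.47 for Cxcl11, and treated knockout array 3 stood at -1.18, -1.07 and -0.54. Untreated knockout array 2 also stood high for Cxcl9, by 1.16, and untreated array 1 low, at -0.96.

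**Figure D4:**
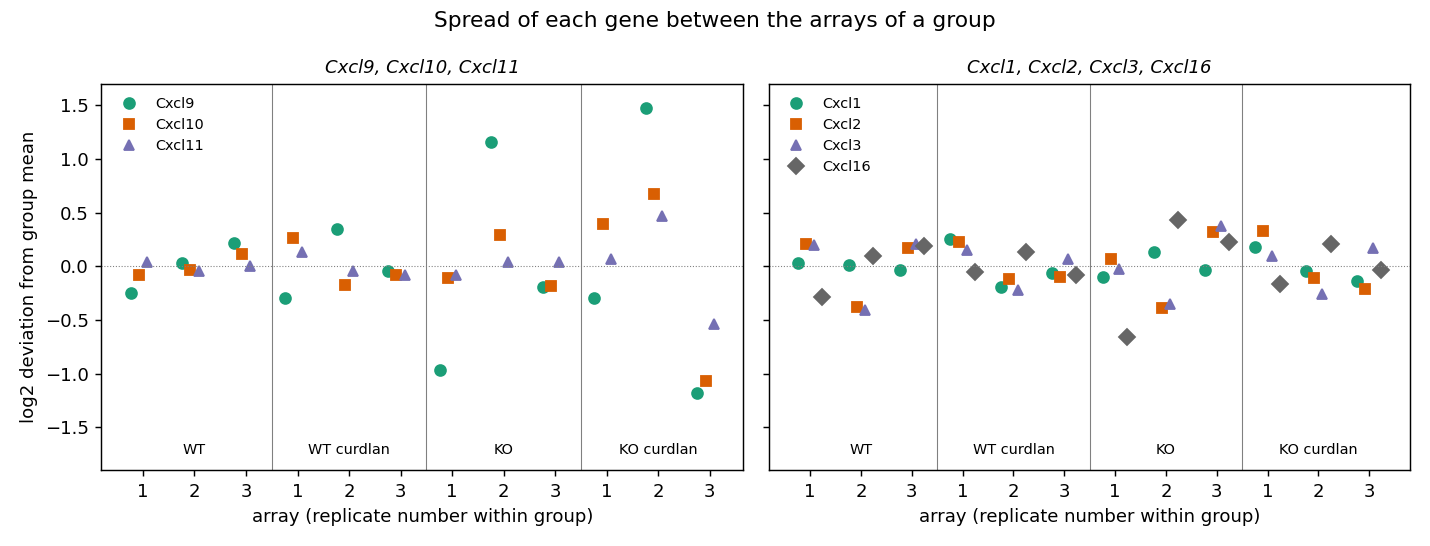
Deviation of each member from its group mean (log2 units, y axis) on each of 12 arrays (x axis, by group and replicate number). In treated knockout cells Cxcl9, Cxcl10 and Cxcl11 all stand high on array 2 and low on array 3. Cxcl2 and Cxcl3 mostly follow each other. On treated array 3 of each genotype, however, Cxcl2 lies below its group mean and Cxcl3 above.

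Of 17 interferon pathway genes, 9 had treated knockout array 2 highest and array 3 lowest. Array 1 was highest for 6 and array 3 for 2. This order was not counted over all genes, so 9 of 17 cannot be read as particular to the list. Irf7, an interferon-induced transcription factor, read 12.02, 12.29 and 11.58 on the treated knockout arrays, and Irf1 read 10.89, 11.14 and 10.72, both among the 9. Ifng read 6.07, 6.32 and 5.99 there, and Ifnb1 read 4.91, 5.10 and 4.78. These interferon genes lay below the array medians on every array. The natural killer list averaged 4.88, 4.95 and 4.83 on those arrays and the T cell list 5.52, 5.62 and 5.52. Whether any of these accounts for the scatter was not tested.

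The wider pathway was examined through lists. The list of interferon, receptor and IRF pathway genes had 17 measured. With curdlan 6 rose and 1 fell in wild-type cells, and 9 rose and 1 fell in knockout cells (medians 0.13 and 0.19, against 0.02 and 0.04 for all genes). Of all genes 7.27% rose and 12.3% fell in wild-type cells, and 9.29% rose and 13.2% fell in knockout cells. Irf7 rose by 3.35 (adjusted p 1.58e-06) and 2.72 (1.13e-05), Stat2 by 1.37 and 1.35, and Irf1 by 1.19 and 1.29, in wild-type and knockout cells in that order. Ifngr1, a chain of the interferon gamma receptor, was the gene that fell, by 0.73 and 0.67. Neither Ifnb1 nor Ifng passed in either genotype, with Ifng at 0.10 (adjusted p 0.433) in wild-type cells, but with culture as a block Ifnb1 passed in knockout cells (0.25, adjusted p 0.0422).

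Of 14 NF-kB genes listed, 12 were measured and 11 rose in each genotype, with medians of 0.75 and 0.76 and no fall. The share of all genes that rose was 7.27% in wild-type and 9.29% in knockout cells. Nfkbiz, which encodes an inducible co-activator of NF-kB, rose by 1.07 in wild-type and 1.06 in knockout cells. Tnfaip3 (A20), a feedback inhibitor, rose by 1.04 and 1.01, and the inhibitor Nfkbie by 0.88 and 1.02. Irf7, Stat2, Irf1, Nfkbiz, Tnfaip3 and Nfkbie kept their calls in both genotypes with each array left out, and none of the measured genes of either list passed between genotypes. With the replicate number as a block, Irf7 was higher (0.73, adjusted p 0.0337) and Jak2 lower (-0.48, adjusted p 0.0232) in untreated knockout cells.

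**Figure D5:**
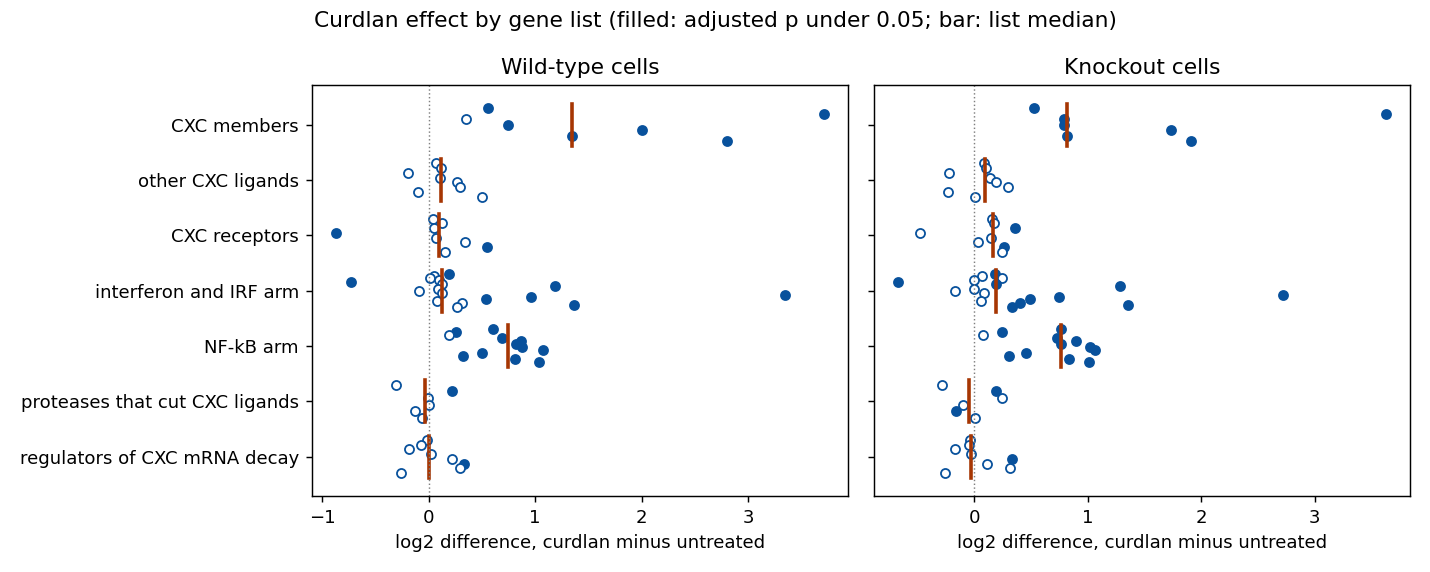
Log2 difference of curdlan minus untreated (x axis) for the members and for each listed gene in wild-type (left) and knockout cells (right); each point is a gene, filled where its adjusted p is under 0.05, and the bar is the list median. The members and the NF-kB list lie to the right of 0 (medians 1.35 and 0.75 in wild-type cells), and the remaining lists have medians between -0.05 and 0.19.

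None of the other CXC ligands passed without a replicate block. Of 8 measured (Cxcl5, Cxcl12, Cxcl13, Cxcl14, Cxcl15, Cxcl17, Pf4 and Ppbp), 0 passed in either genotype or in any genotype comparison. Their medians were 0.11 and 0.09 for curdlan. Among all genes 7.27% rose and 12.3% fell with curdlan in wild-type cells, and 9.29% and 13.2% did in knockout cells. Between genotypes 1.42% of all genes passed untreated and 0.622% with curdlan. Ppbp, which lies in the same gene cluster as Cxcl3, was 0.50 higher in treated wild-type cells (adjusted p 0.0964) and 0.01 higher in treated knockout cells (0.986). Cxcl5, a further ligand of Cxcr2 in that cluster, had 0.30 in both genotypes (0.118 and 0.0976). With culture as a block 2 passed in each genotype, against 26.4% of all genes in wild-type and 32.3% in knockout cells. These were Ppbp (0.00335) and Cxcl5 (0.0162) in wild-type cells, and Cxcl5 (0.0151) and Pf4 (-0.23, adjusted p 0.0347) in knockout cells. With the replicate number as a block Pf4 was higher in untreated knockout cells (0.68, adjusted p 0.0266, and 0.399 without it).

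Of 8 receptor genes, 1 rose and 1 fell in wild-type cells and 2 rose in knockout cells. Among all genes 7.27% rose and 12.3% fell in wild-type cells, and 9.29% and 13.2% did in knockout cells. The counts are therefore not read as particular to the receptors. Cxcr5 rose in both genotypes (0.55, adjusted p 0.00105, and 0.26, adjusted p 0.0413, by limma), and Cxcr1 rose in knockout cells (0.36, adjusted p 0.00436). Cxcr2, the receptor for Cxcl1 to Cxcl3, fell in wild-type cells (-0.87, adjusted p 0.0483). Means of these 3 receptors lay below the array medians in every group. The Cxcr2 call was lost without untreated wild-type array 2 (0.167) or 3 (0.104) or treated array 1 (0.187), 2 (0.0581) or 3 (0.0678), and its untreated and treated arrays overlapped. The Cxcr5 call in knockout cells was lost without untreated array 1 (0.0829), 2 (0.0895) or 3 (0.0903) or treated array 1 (0.121) or 3 (0.0943). Cxcr3 and Cxcr6, which read Cxcl9 to Cxcl11 and Cxcl16, did not pass (0.07 and 0.16 in wild-type cells). With culture as a block the calls were 3 in wild-type cells, against 26.4% of all genes, with Cxcr4 (0.34, adjusted p 0.0329) added. In knockout cells they were 4, against 32.3% of all genes, with Cxcr6 (0.25, adjusted p 0.0276) and Cxcr2 (-0.47, adjusted p 0.0154) added.

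Among 6 proteases known to cut these ligands, Dpp4 differed between genotypes. Dpp4 (CD26), a cell-surface peptidase known to clip the amino terminus of Cxcl9, Cxcl10 and Cxcl11, read 9.47, 10.24 and 10.18 in untreated wild-type cells and 8.22, 8.70 and 8.61 in untreated knockout cells. With curdlan it read 9.57, 10.15 and 10.16 against 8.57, 9.06 and 8.64. The knockout arrays lay below the wild-type arrays in both treatments. The difference was -1.45 ± 0.23 untreated (SE, adjusted p 0.0134) and -1.20 ± 0.23 with curdlan (adjusted p 0.0423), and Dpp4 did not pass with curdlan in either genotype (adjusted p 0.996 and 0.436), although with culture as a block it did in knockout cells (0.25, adjusted p 0.0387).

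The Dpp4 call in untreated cells was lost without untreated wild-type array 2 (0.0748) or knockout array 1 (0.051). In treated cells it was lost without wild-type array 2 (0.219) or 3 (0.141) or knockout array 1 (0.151), 2 (0.0852) or 3 (0.101). Over 23 alternatives each, it passed in 16 untreated and 10 treated, with differences between -1.70 and -1.31 and between -1.40 and -1.10. Adam17, a sheddase of membrane proteins such as Cxcl16, rose by 0.22 (adjusted p 0.011) and 0.19 (0.0242) with curdlan, the latter lost without untreated (0.0995) or treated (0.0823) knockout array 1. Adam10, the other protease known for Cxcl16, did not pass (-0.31 and -0.29), but fell in both genotypes with culture as a block (adjusted p 0.00446 and 0.00651). Mmp8 fell by 0.16 in knockout cells (adjusted p 0.0486), a call lost without untreated array 1 (0.136), 2 (0.0671) or 3 (0.111) or treated array 1 (0.107) or 2 (0.179) and with culture as a block (0.0525).

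Of 8 regulators of chemokine mRNA decay, 1 rose in each genotype and none fell. The share of all genes that rose was 7.27% in wild-type and 9.29% in knockout cells, and 12.3% and 13.2% fell. This count is therefore not read as particular to the list. With culture as a block 2 rose and 2 fell in wild-type cells, where 26.4% of all genes passed. In knockout cells 1 rose and 2 fell under that block, where 32.3% of all genes passed. Zfp36l2 and Khsrp fell in both. With the replicate number as a block Zfp36l1 was lower in untreated knockout cells (-0.53, adjusted p 0.0247). Zfp36, which encodes an RNA-binding protein that shortens the life of AU-rich messages, rose by 0.34 in wild-type cells (adjusted p 0.00427). Zc3h12a, which encodes the ribonuclease Regnase-1, rose by 0.33 in knockout cells (adjusted p 0.0152) and lost its call without untreated array 3 (0.0604) or treated array 1 (0.0618) or 2 (0.0596).

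Neighbouring genes showed whether whole stretches of chromosome moved. Cxcl1, Cxcl2 and Cxcl3 sit together on chromosome 5, Cxcl9, Cxcl10 and Cxcl11 in a second cluster on it, and Cxcl16 on chromosome 11. Of the 5 nearest tested genes on each side, 0 of 10 passed with curdlan around Cxcl1 to Cxcl3 in either genotype. With culture as a block 2 did in each, all of them the CXC ligands named above. Without a block 7.27% of all genes rose and 12.3% fell in wild-type cells, and 9.29% and 13.2% did in knockout cells. Around Cxcl9 to Cxcl11, Sdad1 (-0.53 and -0.64), Ppef2 (-0.52 and -0.46) and Naaa (-0.33 and -0.25) fell in wild-type and knockout cells while Cxcl9 and Cxcl10 rose in both. Naaa lost its knockout call without treated array 1 (0.0509). Stbd1 rose by 0.18 in wild-type cells (adjusted p 0.0318). Around Cxcl16, Alox15, which encodes a lipoxygenase, was 1.00 lower in untreated knockout cells (adjusted p 0.00888), and Alox15 (-0.45) and Pelp1 (-0.25) fell with curdlan in wild-type cells. The wild-type curdlan calls were lost without untreated array 1 (0.151 for Alox15, 0.0676 for Pelp1) or 2 (0.113, 0.129) and without treated array 1 (0.0779, 0.129) or 3 (0.129, 0.0711). With culture as a block 4 neighbours of Cxcl16 passed in wild-type cells, Tm4sf5 (0.35) and Psmb6 (0.19) added. In knockout cells 3 did, Tm4sf5 (0.30), Gltpd2 (0.25) and Pelp1 (-0.16). That block called 26.4% of all genes in wild-type and 32.3% in knockout cells.

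Genes with the most similar profile over the 12 arrays were found by the root mean square difference of values centred on each gene's mean. Closest to Cxcl10 were Isg20 (0.24), an interferon-induced exonuclease gene, and Slfn4 (0.27). Closest to Cxcl2 were Il1b (0.24) and Ccrl2 (0.24), and closest to Cxcl16 were the chemokine gene Ccl22 (0.15) and Sh3bp4 (0.18). Cxcl9 had no close match, its nearest genes being Gbp4 (0.56) and Slfn1 (0.57). For Cxcl1 they were Rtn4rl2 (0.10) and Synpo2 (0.10), for Cxcl3 Agrn (0.24) and Clmp (0.25), and for Cxcl11 Clic5 (0.12) and Il12rb1 (0.14). The measure favours genes with changes of like size and describes these arrays only.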

How the data were processed

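The authors deposited log2 values made with RMA, per the submitters' processing notes, 1 value for each of 34760 probe sets on 12 Affymetrix arrays. RMA equalises array distributions, which would hide a shift of all transcripts. Not known are its version, the annotation and which arrays were normalised as 1 set. Correlations between arrays were 0.981 to 0.997 and 0 pairs were identical. Their number limits the precision.

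Probe sets with exactly 1 symbol (21640) were kept, with the highest mean for genes that had several, giving 19937 genes; 1321 with several symbols and 11799 unlisted were left out of the main fit. Each member had 1 such probe set. The 4 group means were estimated by limma 3.58.1 under R 4.3.3 from the 12 arrays together (8 residual degrees of freedom), with 5 contrasts, moderated two-sided tests and Benjamini-Hochberg adjustment over 19937 genes at 0.05. The procedure was tested on simulated data. Members, lists, motifs and rules were chosen with earlier results of these data known. Genes named beside the members were those of the ligand and receptor lists that passed, up to 3 per other list and contrast (or the 1 with the largest change where none passed), and the 2 most similar per member; Ifng, Ifnb1, Ifngr1, Adam10, Cxcr3, Cxcr6, Cxcl5 and Stbd1 were named after their values were seen. Marker lists of macrophages, B cells, plasmacytoid dendritic cells, mast cells and basophils, and stroma were also measured: with curdlan 2, 0, 1, 0 and 1 of their genes rose in wild-type and 2, 0, 2, 1 and 2 in knockout cells. The neutrophil list shares Cxcr2 with the receptor list and Mmp8 with the protease list, and 1 of its genes fell in each genotype. No T cell marker passed without a block. Of the dendritic cell list 3 of 10 rose in each genotype, and 1 natural killer gene (Ncr1) rose in knockout cells. None of the marker genes passed between genotypes. For these lists, the fit with culture as a block (replicate number for untreated genotypes) was added after the data were seen, and so were the genes named from it; it also called Cd14 and other macrophage markers, and 1 T cell, 2 natural killer and 3 stroma genes in knockout and 0, 1 and 2 in wild-type cells, 1 mast cell and basophil gene in wild-type cells, 4 dendritic cell genes in each, and 2 mast cell and basophil and 1 stroma gene lower in untreated knockout cells.

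Whether replicate numbers pair arrays was checked by correlating deviations from group means across genes. Same-numbered arrays correlated at 0.37 to 0.45 in wild-type and 0.49 to 0.60 in knockout cells across treatments, and at 0.11 to 0.25 between untreated genotypes, so the numbers were taken as pairs there. Between treated genotypes the lowest was -0.13, so they were not. With culture as a block 26.4% of all genes passed with curdlan in wild-type and 32.3% in knockout cells.

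Protein sequences were not used here. Promoter windows came from RefSeq (GRCm38.p6). Arrays, cultures, blocks, moderation, weights, scaling, dim genes, probe set choice and features tested were varied.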

Additional observations from a re-analysis of the deposited data

How the results depend on the processing

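All 292 alternative values of the members' curdlan effects kept their sign, 34 lost the call and 1 gained it. Of 522 alternative genotype differences and interactions, 53 turned sign and 3 gained a call; none of these effects was called as reported. With 1 array or culture left out, 4 to 5 members passed in wild-type cells (6 as reported) and 2 to 7 in knockout cells (7 as reported), the lowest without both knockout arrays of replicate 1 and 4 without either one of them. With only the 6 arrays compared, 4 passed in knockout cells, where fewer samples set the spread; the cause was not tested. Between untreated genotypes 1 member (Cxcl3) passed with the replicate number as a block and 0 with arrays left out. Between treated genotypes 1 (Cxcl11) passed with array weights, and 0 to 1 with arrays left out. The interaction had 0 in every alternative. The block by replicate number or by culture, fixed or random, changed no other count of members: 6 in wild-type and 7 in knockout cells. Between treated genotypes, where the pairing did not hold, the block by number raised the genes called from 124 to 450 and called 0 members.

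With array weights, 5 small differences turned sign: Cxcl2 (0.14) and Cxcl10 (0.19) between treated genotypes, Cxcl11 (0.0007) between untreated ones, and the interactions of Cxcl1 (0.15) and Cxcl10 (0.30). Centring arrays on the median turned untreated Cxcl11 (0.008). Leaving out arrays turned others within these ranges. Untreated genotype differences ran from -0.0473 to 1.01 for Cxcl9, -0.18 to 0.0574 for Cxcl10, -0.0256 to 0.0376 for Cxcl11 and -0.48 to 0.0674 for Cxcl16. Treated differences ran from -0.0573 to 0.17 for Cxcl1, -0.20 to 0.0752 for Cxcl2, -1.09 to 0.23 for Cxcl9 and -0.45 to 0.42 for Cxcl10. Interactions ran from -0.18 to 0.0923 for Cxcl1, -0.42 to 0.45 for Cxcl10 and -0.28 to 0.26 for Cxcl16. Leaving out dim genes kept 11213 genes and 6 members, without Cxcl11, so it has no value there. With 2 arrays in a group, that group is assumed to vary like the others.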
